A study of Sus scrofa with 6 samples.

Results

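The insulin-like growth factor (IGF) family was followed through 6 libraries of pig oviduct ampulla, the segment in which fertilisation takes place. The list held 10 genes: the ligands IGF1 and IGF2, the receptors IGF1R and IGF2R, and the binding proteins IGFBP2 to IGFBP7. They were taken from the deposited table of 35670 Ensembl pig genes by gene symbol. Of the 10, 8 had a row with their symbol, and all 8 passed the filter on low counts that left 17920 genes for testing. IGF2 and IGFBP3 had no identifier paired with their symbols, so they are not analysed here.

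The tissue came from female pigs (Sus scrofa), and its polyadenylated RNA was sequenced at 2 stages of the oestrous cycle: 3 libraries are post-ovulatory and 3 early luteal. Neither the breed, the age, any treatment nor the number of animals behind the libraries is given in the sources used here. The replicates may therefore be technical, and p-values measure only the spread between these samples. Library totals ran from 7370723 to 30954222 counts. On the first principal component early luteal replicate 2 (176) was far from the remaining 5 libraries (-51.0 to 2.39). Values without it are given for IGFBP2 and IGFBP4 where they are described, and for some other genes in the closing section. Epithelial markers of the oviduct were present in all 6 libraries, the secretory list summing to between 1633 and 12855 CPM (counts in every 1000000 of the library after TMM scaling) and the ciliated list (led by TPPP3 and DNAH5) to between 1803 and 3229 CPM.

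IGF1 and IGF2 are small secreted proteins related to insulin. Both act through the receptor tyrosine kinase IGF1R, which passes the signal through IRS adaptors to PI3K, AKT and mTOR and through RAS to the MAP kinases. IGF2R, the cation-independent mannose 6-phosphate receptor, takes IGF2 into the cell for breakdown. The binding proteins hold the ligands outside the cell, and proteases such as PAPPA release them by cutting the binding protein. In the uterus and oviduct IGF1 is best known as a product of the stroma that responds to oestrogen, and growth hormone drives its release by the liver.

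IGF1 stood lower in every early luteal library than in any post-ovulatory one, whereas its receptors and all 5 binding proteins overlapped between the stages. The stages thus did not overlap for 12.5% of the 8 genes, beside 17.2% of all genes tested. Most genes overlapped, so nothing particular to the receptors or binding proteins follows. IGF1 was 4.81-fold lower, IGF1R and IGF2R were 1.22-fold and 1.15-fold higher in the fit, and the binding proteins lay between 2.65-fold lower (IGFBP6) and 1.5-fold higher (IGFBP7). Of the 8 genes, 4 were lower and 4 higher in the early luteal stage, where 51.8% of all genes tested were lower, and their median log2 fold change was -0.29, beside -0.03 over all 17920 genes tested. In edgeR's quasi-likelihood test 0 of the 8 passed a Benjamini-Hochberg adjusted p of 0.05, and 0 of all genes tested did (0%). At an unadjusted p under 0.05 it counted 1 of the 8, IGF1, beside 7.11% of all genes. limma voom also called 0 genes, with 1 of the 8 and 7.13% of all genes at an unadjusted p under 0.05. DESeq2 called 1 of the 8, again IGF1, where it called 0.986% of the 17740 genes to which it gave an adjusted p, 0.519% in the direction of IGF1. limma voom with sample quality weights called 0.0502% of all genes and 0 of the 8. The list was drawn up with the IGF1 difference known, so its share is no separate evidence.

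**Figure D1:**
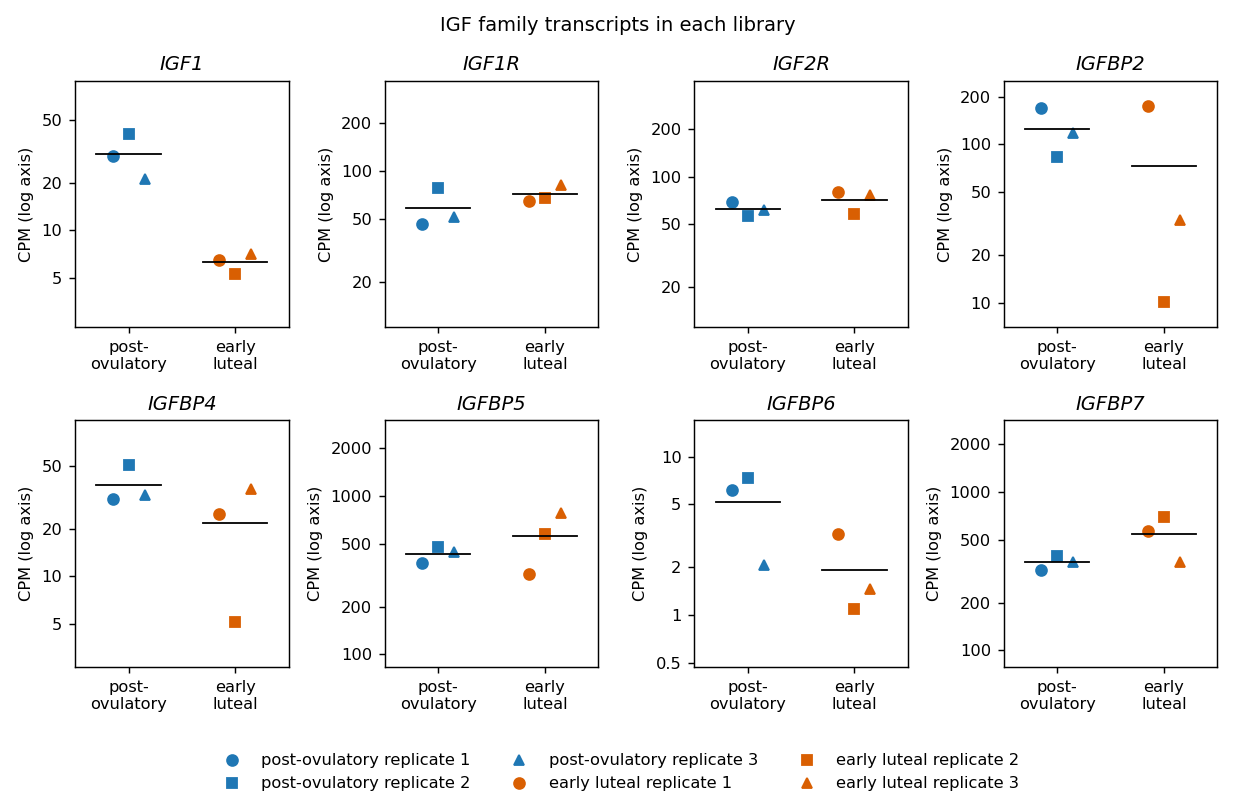
CPM (log axis) of the 8 genes in the 6 libraries. Points are libraries, with symbols for the replicate number, and black lines are stage means (n = 3). Only IGF1 has all early luteal libraries (5.28 to 7.05 CPM) below all post-ovulatory ones (20.9 to 40.3 CPM); IGFBP2 and IGFBP4 spread most in early luteal tissue.

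The ligand gene IGF1 (ENSSSCG00000000857) spans 147 kb of chromosome 5 in the RefSeq annotation of Sscrofa11.1, from 81762027 to 81909253. Post-ovulatory replicates 1, 2 and 3 held 29.6, 40.3 and 20.9 CPM of IGF1, from 398, 319 and 654 counts. In early luteal replicates 1, 2 and 3 the gene was at 6.44, 5.28 and 7.05 CPM, which rest on 100, 39 and 106 counts. Here the highest early luteal library lay well below the lowest post-ovulatory one, and the early luteal libraries lay closer together. Within a stage the highest library exceeded the lowest 1.93-fold in post-ovulatory and 1.33-fold in early luteal tissue. The stage means were 30.3 ± 9.71 CPM (SD, n = 3) and 6.26 ± 0.896 CPM (SD, n = 3), a 4.81-fold lower level with a 95% interval from 2.62-fold to 8.84-fold (edgeR). On the log2 scale the difference was -2.27 ± 0.38 (SE), with an unadjusted p of 0.000284, rank 13 among the genes tested, and a Benjamini-Hochberg adjusted p of 0.392 (edgeR's quasi-likelihood test). DESeq2 gave the same size (-2.27) with an adjusted p of 1.3e-05. A lack of overlap in either direction was found for 17.2% of all genes tested, and in the direction of IGF1 for 9.57%. In bulk tissue, fewer cells that make IGF1 and less IGF1 RNA per cell cannot be told apart.

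Stroma is the tissue layer known as a source of IGF1. Of 13 stroma markers tested, 12 were lower (51.8% of all genes tested were), with a median log2 fold change of -0.58. At an unadjusted p under 0.05 there were 4 lower, beside 3.54% of all genes, and 0 passed the threshold (edgeR). DESeq2 called 2 of them lower, beside 0.519% of the genes it tested. Their summed level ran from 2046 to 3824 CPM in post-ovulatory and from 1437 to 2614 CPM in early luteal libraries, and none of them was at 0. The highest mean CPM in the list was that of FBLN1, a matrix glycoprotein, at 484, 629 and 455 CPM in post-ovulatory and 486, 253 and 531 CPM in early luteal replicates 1, 2 and 3, and VIM, an intermediate filament gene of mesenchyme, at 603, 530 and 325 against 1068, 162 and 99.1 CPM. Both overlapped, whereas COL1A1, COL3A1, DCN, LUM and PI16 were lower in every early luteal library, beside 9.57% of all genes tested.

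IGF1 can be set against each marker by the ratio of their counts in one library, which needs no scaling. IGF1 counts per 100 counts of decorin (DCN), a stromal proteoglycan, were 9.90, 9.71 and 6.31 in post-ovulatory replicates 1, 2 and 3 and 2.34, 2.04 and 2.95 in their early luteal counterparts. No early luteal ratio reached a post-ovulatory one, and the geometric means differed by 3.50-fold. Per 100 counts of FBLN1 the values were 6.13, 6.40 and 4.60 against 1.33, 2.09 and 1.33, again without overlap. COL1A1, the main fibrillar collagen gene, gave another picture. IGF1 per 100 counts of COL1A1 was 5.96, 6.75 and 11.3 in the post-ovulatory libraries and 7.05, 3.91 and 6.77 in the early luteal ones, so that these ratios overlapped. Against PDGFRA, a receptor of fibroblasts, early luteal replicates 1 and 2 had 12.02 and 20.9 IGF1 counts per 100, well below the post-ovulatory 78.5, 64.6 and 77.8, but early luteal replicate 3 had 90.6. Over the 13 stroma markers the ratio was lower in every early luteal library for 5 (DCN, FBLN1, COL1A2, COL3A1 and COL6A3), and its stage fold ran from 3.66-fold lower for FBLN1 to 0.779 for PI16, a value below 1 that marks a higher ratio in early luteal tissue. Over all 16607 tested genes with a count in every library, the IGF1 ratio was lower without overlap for 82.9%. The part of stromal cell number in the IGF1 difference was not tested.

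**Figure D2:**
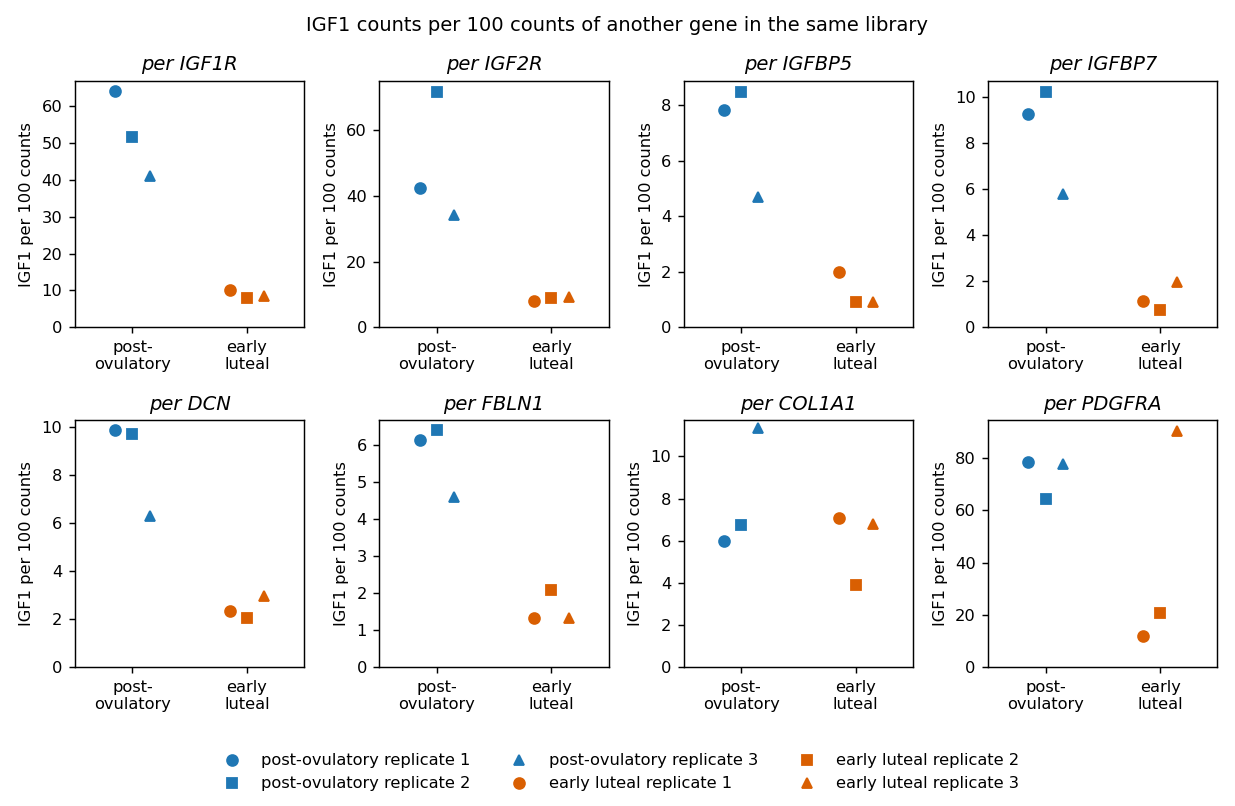
IGF1 counts per 100 counts of another gene in the same library (linear axes from 0), for 4 other IGF family genes (top) and 4 stroma markers (bottom). Against IGF1R, IGF2R, IGFBP5, IGFBP7, DCN and FBLN1 the early luteal libraries lie below all post-ovulatory ones; against COL1A1 and PDGFRA the stages overlap.

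The 5 genes with a symbol whose pattern over the 6 libraries lay nearest to that of IGF1 were SRM, SFRP2, SERPINH1, RRP8 and CCDC167. Likeness was the root mean square difference of log2 CPM, centred per gene, among 9362 other genes with a mean of at least 10 CPM. It was 0.40 for SRM, the spermidine synthase, and 0.409 for SFRP2, a secreted WNT modulator. SERPINH1, the collagen chaperone, followed at 0.425, RRP8 at 0.430 and CCDC167 at 0.435, beside a median of 1.17 over the genes considered. SFRP2 stood at 222, 253 and 87.6 CPM in post-ovulatory and 47.5, 44.4 and 28.6 CPM in early luteal replicates 1, 2 and 3. SERPINH1 stood at 480, 327 and 311 against 143, 76.8 and 109 CPM. None of the 5 genes overlapped between the stages, which follows from choosing them for likeness to IGF1. Among the other IGF genes IGFBP6 was nearest (0.668) and IGFBP7 farthest (1.45). PGR, the progesterone receptor and an oestrogen target, was named with earlier results of these data known. It stood at 65.4, 35.6 and 50.9 CPM in post-ovulatory and 9.73, 13.4 and 12.9 CPM in early luteal replicates. PGR was lower without overlap, as were 9.57% of all genes tested (log2 fold change -2.08; edgeR, adjusted p = 0.333). The oestrogen receptor ESR1 stood at 544, 314 and 739 against 238, 466 and 411 CPM and overlapped. The part of oestrogen in the IGF1 and PGR values was not tested.

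Neither receptor gene differed between the stages beyond the spread of the libraries. IGF1R (ENSSSCG00000030560; chromosome 1, 137383623 to 137691038), the receptor kinase for both ligands, stood at 46.4, 78.3 and 51.1 CPM in post-ovulatory and 64.4, 67.2 and 82.1 CPM in early luteal replicates 1, 2 and 3. Post-ovulatory replicate 2 lay among the early luteal libraries, the other 2 below them. The difference was 0.28 ± 0.28 (SE) on the log2 scale, with a 95% interval from 0.776-fold to 1.91-fold (edgeR's quasi-likelihood test, adjusted p = 0.826). IGF2R (ENSSSCG00000004044; chromosome 1, 7369485 to 7472480), the clearance receptor, stood at 69.8, 56.2 and 61.4 CPM in post-ovulatory and 80.1, 58.4 and 76.9 CPM in early luteal replicates. Its stages overlapped through early luteal replicate 2. IGF2R had the narrowest spread of the 8 genes, with an SD within stages of 0.21 on the log2 scale beside a median of 0.57 over all genes tested. Its difference was 0.20 ± 0.25 (SE), with an interval from 0.776-fold to 1.70-fold (edgeR, adjusted p = 0.859). These intervals leave room for an early luteal rise of up to 1.91-fold in IGF1R and 1.70-fold in IGF2R.

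Set against its receptor, the ligand differed by more than in CPM. IGF1 counts per 100 counts of IGF1R were 63.9, 51.5 and 41.0 in post-ovulatory replicates 1, 2 and 3 and 10, 7.86 and 8.59 in their early luteal counterparts. The ratios of the stages did not overlap, and the geometric means differed by 5.84-fold. Among the 7 other IGF genes the ratio separated the stages for 4 (IGF1R, IGF2R, IGFBP5 and IGFBP7) and overlapped for IGFBP2, IGFBP4 and IGFBP6, beside 82.9% of all genes for which it separated them in that direction, so that nothing particular to these 4 follows. Per 100 counts of IGFBP6 it was 480, 550 and 1006 against 200, 488 and 482.

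**Figure D3:**
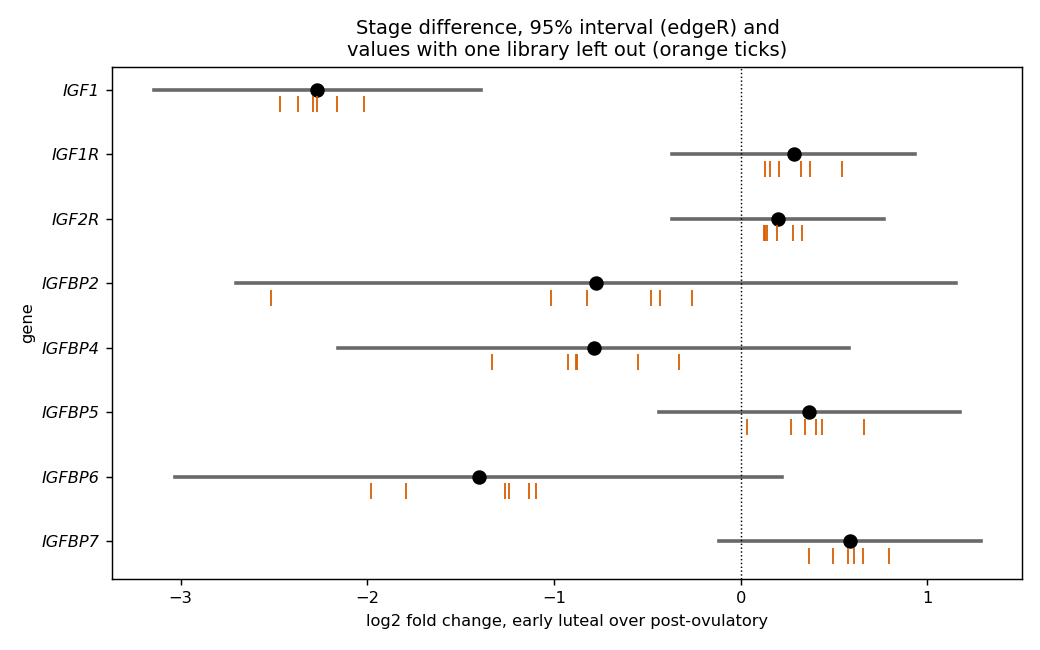
log2 fold change, early luteal over post-ovulatory, of the 8 genes (black points) with edgeR's 95% interval (grey bars) and the values with each library left out in turn (orange ticks). The interval of IGF1 (-3.14 to -1.39) lies below 0 and those of the other 7 include 0; for IGFBP2 the left-out values run from -2.51 to -0.26.

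Of the 5 binding proteins 3 were lower and 2 higher at the early luteal stage, and none passed the test. IGFBP2 (ENSSSCG00000035392; chromosome 15, 118822092 to 118850985), which carries an integrin-binding motif, varied most. It stood at 170, 83.4 and 119 CPM in post-ovulatory and 174, 10.03 and 33.0 CPM in early luteal replicates 1, 2 and 3. Early luteal replicate 1 was the highest library of all 6, while early luteal replicates 2 and 3 were the lowest, a 17.4-fold range within a stage. The log2 fold change was -0.77 ± 0.84 (SE), with a 95% interval from -2.70 to 1.15 (edgeR's quasi-likelihood test, adjusted p = 0.841). It was -2.51 without early luteal replicate 1 (edgeR, adjusted p = 0.276) and -0.26 without early luteal replicate 2 (edgeR, adjusted p = 0.927). Of the secretory epithelium list, the gene with the highest mean CPM, OVGP1, ran from 156 to 10688 CPM in post-ovulatory and from 292 to 2356 CPM in early luteal libraries. The epithelial adhesion gene EPCAM stood at 539, 385 and 522 CPM in post-ovulatory and 542, 1093 and 494 CPM in early luteal replicates, highest where IGFBP2 was lowest. Over the 8 tested genes of that list, the mean log2 CPM centred per gene was highest in post-ovulatory replicate 3 (0.70). It was 0.07 in early luteal replicate 1 and lowest in early luteal replicate 2 (-0.76). The claudin genes of the list, named after their values were seen, do not stand for it. Like IGFBP2 they were highest in early luteal replicate 1 and lowest in early luteal replicate 2. CLDN3 stood at 59.6, 47.5 and 72.3 against 79.2, 8.40 and 67.6 CPM, and CLDN4 at 69.0, 94.1 and 106 against 146, 19.8 and 119 CPM. Macrophage markers, 10 of 10 lower in early luteal tissue (median -0.55, none called and none at 0 in every library), were likewise high in early luteal replicate 1. Those with the highest mean CPM were the complement genes C1QB, at 56.7, 48.5 and 26.4 against 49.5, 22.4 and 21.6 CPM, and C1QC, at 47.8, 36.6 and 19.0 against 51.3, 20.5 and 19.5 CPM. Their summed level was 222, 210 and 107 CPM in post-ovulatory and 215, 79.1 and 84.2 CPM in early luteal replicates. T and NK cell markers summed to 63.4, 75.7 and 34.8 against 88.0, 17.2 and 22.0 CPM, with the same highest and lowest library as IGFBP2. No share of all genes with these extremes was counted. Early luteal replicate 2, the library far from the others on the first principal component, was lowest for 4 of the 8 IGF genes, IGFBP2 among them. The share of all genes lowest in that library was not counted either, so nothing particular to the family follows. By mean centred log2 CPM early luteal replicate 2 was also lowest for the RAS-MAPK (-0.41) and endothelial (-1.36) lists. Of the 9 T and NK cell markers tested 8 were lower (median -0.68), none was called, and CD4, CD8A, GZMA and NCR1 were at 0 in early luteal replicate 2. Of highest mean CPM among them were the T cell receptor chain CD247, at 17.2, 15.9 and 14.3 against 21.3, 8.67 and 12.0 CPM, and the receptor KLRK1, at 9.01, 13.8 and 6.49 against 21.8, 6.10 and 3.26 CPM. VIM, given above with the stroma markers, was also highest in early luteal replicate 1 but does not stand for its list. The mean centred log2 CPM of the stroma markers was highest in post-ovulatory replicate 2 (0.91). It was 0.14 in early luteal replicate 1 and lowest in early luteal replicate 3 (-0.88). The part of these cells in the IGFBP2 values was not tested.

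IGFBP4 (ENSSSCG00000017472; chromosome 12, 21966524 to 21980043), a binding protein cut by PAPPA, was low in 1 early luteal library. It stood at 30.8, 50.4 and 32.9 CPM in post-ovulatory and 24.9, 5.15 and 35.6 CPM in early luteal replicates 1, 2 and 3, the low value resting on 38 counts. Early luteal replicate 3 lay above 2 of the post-ovulatory libraries. The log2 fold change was -0.79 ± 0.60 (SE; edgeR, adjusted p = 0.779), and it was -0.33 without early luteal replicate 2 (edgeR, adjusted p = 0.767). IGFBP6 (ENSSSCG00000000261; chromosome 5, 18352884 to 18357225), which prefers IGF2 to IGF1, was counted least. It stood at 6.18, 7.33 and 2.08 CPM in post-ovulatory and 3.22, 1.08 and 1.46 CPM in early luteal replicates, from between 8 and 83 counts. The stages overlapped because post-ovulatory replicate 3 lay below early luteal replicate 1. The log2 fold change was -1.40 ± 0.71 (SE), with a 95% interval from -3.03 to 0.22 (edgeR's quasi-likelihood test, unadjusted p = 0.082, adjusted p = 0.701).

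IGFBP5 (ENSSSCG00000025924; chromosome 15, 118861816 to 118877787) binds matrix as well as IGFs and lies 10.8 kb from IGFBP2. It stood at 380, 475 and 447 CPM in post-ovulatory and 321, 577 and 782 CPM in early luteal replicates 1, 2 and 3. The post-ovulatory libraries lay within 1.25-fold of each other, and the early luteal ones lay on both sides of them. The log2 fold change was 0.37 ± 0.35 (SE; edgeR, adjusted p = 0.819) and 0.04 without early luteal replicate 3 (edgeR, adjusted p = 0.984). Although IGFBP2 and IGFBP5 are neighbours, their libraries did not rank alike: early luteal replicate 1 was highest in IGFBP2 and lowest in IGFBP5. Smooth muscle markers had the same lowest and highest library as IGFBP5, a match for which no share of all genes was counted. Their summed level was 4479, 7445 and 3953 CPM in post-ovulatory and 1711, 9704 and 12862 CPM in early luteal replicates 1, 2 and 3. Of the 10 smooth muscle markers 9 were higher in early luteal tissue (median 0.63), none was called and none was at 0, and their part in the IGFBP5 values was not tested. The myosin gene MYH11, of the highest mean CPM among them, stood at 1493, 3260 and 1692 against 493, 4139 and 4766 CPM, and the myosin light chain kinase MYLK at 1054, 1490 and 887 against 609, 2581 and 2820 CPM.

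IGFBP7 (ENSSSCG00000008913; chromosome 8, 56283089 to 56357822), a secreted protein known from vessel walls that binds IGFs weakly, was higher in 2 of the 3 early luteal libraries than in any post-ovulatory one. It stood at 321, 395 and 361 CPM in post-ovulatory and 564, 691 and 361 CPM in early luteal replicates 1, 2 and 3. Early luteal replicate 3 lay among the post-ovulatory libraries. The difference was 0.59 ± 0.31 (SE), 1.5-fold with a 95% interval from 0.922-fold to 2.44-fold (edgeR's quasi-likelihood test, unadjusted p = 0.0913, adjusted p = 0.708). Of 11 endothelial markers 9 were lower in early luteal tissue (median -0.57), beside 51.8% of all genes tested. The 2 genes of highest mean CPM among them, the sialomucin EMCN (204, 213 and 215 against 262, 434 and 223 CPM) and the VEGF receptor KDR (41.6, 85.5 and 63.2 against 111, 79.9 and 79.3 CPM), were the 2 exceptions. EMCN was higher in early luteal tissue without overlap, and KDR overlapped. The summed level of the 11 markers ran from 383 to 626 CPM in post-ovulatory and from 417 to 581 CPM in early luteal libraries. None of them was at 0 in every library, and their part in the IGFBP7 values was not tested.

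The summed counts of the 5 binding proteins were higher in early luteal tissue, although IGFBP2, IGFBP4 and IGFBP6 were lower and each gene overlapped. This sum was formed after the values were seen and was not tested. It was 908, 1011 and 962 CPM in post-ovulatory and 1088, 1285 and 1212 CPM in early luteal replicates 1, 2 and 3. Every early luteal library thus lay above every post-ovulatory one. Among single genes tested 7.61% did so, but no share was counted for sums of 5 genes, so how uncommon this is was not measured. The sums were also without overlap when the counts were scaled by library totals, by upper quartiles or by the size factors of DESeq2. The sum rests on IGFBP5 and IGFBP7, which together supplied most binding protein counts in each library. IGFBP5 supplied from 41.8% to 47.0% of them in post-ovulatory and from 29.5% to 64.5% in early luteal libraries. IGFBP2 supplied from 8.25% to 18.8% in post-ovulatory libraries but 16%, 0.781% and 2.73% in early luteal replicates 1, 2 and 3. These are shares of counts, not corrected for transcript length, and IGFBP3 is not in the sum. For the same reason the highest mean CPM serves in each list only to choose which genes are named, and does not rank their transcript levels.

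**Figure D4:**
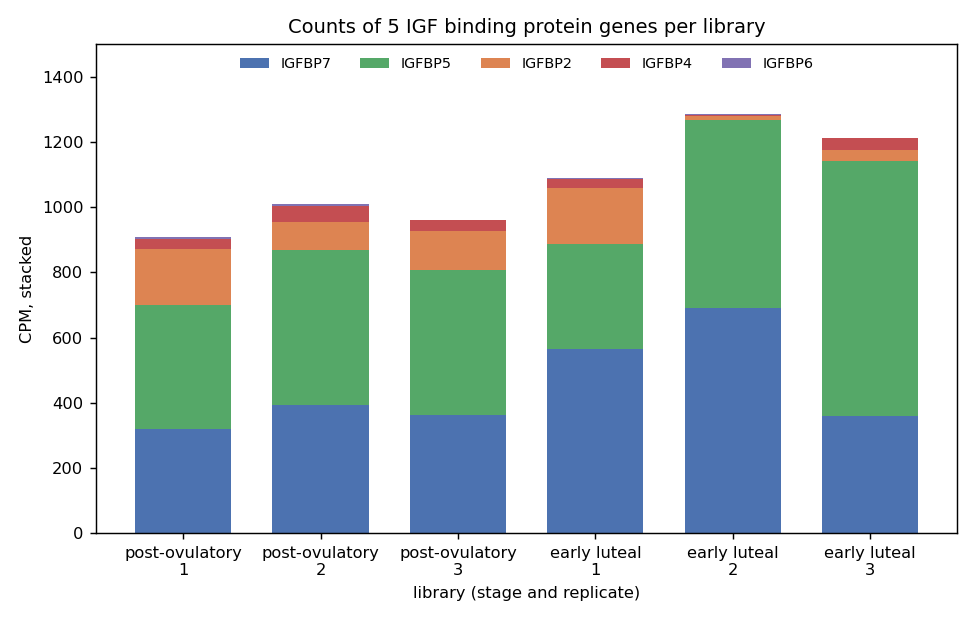
Stacked CPM of 5 IGF binding protein genes in each library (linear axis from 0, not corrected for transcript length). Early luteal sums (1088 to 1285 CPM) lie above post-ovulatory ones (908 to 1011 CPM), and the IGFBP2 segment is small in early luteal replicates 2 and 3.

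A list of 15 genes held proteases, cofactors and relatives of the binding proteins, the endothelial proteoglycan ESM1 and the IGF2 mRNA-binding proteins IGF2BP1, IGF2BP2 and IGF2BP3, which bind RNA and not the ligands. Of the 15 genes, 12 were tested. Of these 10, IGF2BP2 and IGF2BP3 among them, were lower and 2 higher at the early luteal stage, with a median log2 fold change of -0.57, and 0 passed the threshold (edgeR and DESeq2). IGFBPL1, a secreted relative of the binding proteins, was the only one at an unadjusted p under 0.05, beside 3.54% of all genes in that direction. It had 28, 8 and 87 counts in post-ovulatory and 0, 0 and 4 counts in early luteal replicates 1, 2 and 3. Without overlap, these gave 2.08, 1.01 and 2.78 against 0, 0 and 0.266 CPM (edgeR's quasi-likelihood test, unadjusted p = 0.00711, adjusted p = 0.632). The size of that difference is poorly determined at such counts. The highest mean CPM in the list was that of the proteases HTRA1, at 190, 193 and 266 against 225, 107 and 192 CPM, and ADAM28, at 48.2, 61.3 and 80.0 against 68.7, 101 and 71.7 CPM, and both overlapped.

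Of the pappalysins, PAPPA2 stood at 7.30, 6.06 and 4.54 CPM in post-ovulatory and 4.96, 1.90 and 2.19 CPM in early luteal replicates 1, 2 and 3. PAPPA itself, named here for its role after its values were seen, had between 0 and 16 counts in a library and did not pass the filter. STC2, an inhibitor of PAPPA also named for its role after its values were seen, stood at 13.0, 13.4 and 19.2 against 6.89, 15.4 and 6.98 CPM and overlapped. IGFBP1, a product of liver and of decidualised stroma, had 1 count in post-ovulatory replicate 1 and 0 in the other libraries, where 3 counts correspond to at most 0.406 CPM. It was not detectable at this depth.

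Downstream of the receptors, 32 of 35 listed genes of the insulin receptor, the adaptors and the PI3K, AKT and mTOR arm were tested. Of these 21 were lower and 11 higher at the early luteal stage, and the median was -0.10. edgeR called 0, and at an unadjusted p under 0.05 it counted 6 of the 32 (beside 7.11% of all genes), 5 higher and 1 lower. IRS2, an adaptor of both the insulin and the IGF1 receptor, had the lowest p. It stood at 23.8, 37.9 and 35.5 CPM in post-ovulatory and 81.1, 79.8 and 93.2 CPM in early luteal replicates 1, 2 and 3, without overlap. Its log2 fold change was 1.39 ± 0.27 (SE; edgeR's quasi-likelihood test, adjusted p = 0.522; DESeq2, adjusted p = 0.00373), the only DESeq2 call in the list, beside 0.468% of all genes in that direction. IRS1, the other main adaptor, named for that role after its values were seen, stood at 22.2, 20.3 and 41.5 against 20.5, 26.1 and 21.8 CPM and overlapped. FOXO1, a transcription factor that AKT keeps out of the nucleus, stood at 31.05, 43.2 and 31.7 against 47.7, 92.1 and 77.5 CPM.

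The catalytic PI3K subunit gene PIK3CB stood at 27.3, 24.5 and 31.1 CPM in post-ovulatory and 42.0, 67.2 and 50.3 CPM in early luteal replicates 1, 2 and 3. Its stages did not overlap (log2 fold change 0.94 ± 0.28, SE; edgeR, adjusted p = 0.649). The regulatory subunit PIK3R1, of the highest mean CPM in the list, stood at 205, 349 and 357 against 137, 263 and 209 CPM and overlapped. PTPN11, the phosphatase SHP2, stood at 154, 94.7 and 91.9 against 72.2, 162 and 79.7 CPM and had no steady direction when libraries were left out. Over the list, 6 genes lay higher and 4 lower in early luteal tissue without overlap, 31.2% of those tested beside 17.2% of all genes, a share that was not tested.

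In the RAS and MAP kinase arm all 14 listed genes were tested, and 10 were lower and 4 higher at the early luteal stage, with a median of -0.25 and differences between -0.88 and 0.30. None was called by edgeR or DESeq2, and none had an unadjusted edgeR p under 0.05. HRAS, one of the RAS switches, stood at 17.1, 18.1 and 22.6 CPM in post-ovulatory and 15.2, 6.50 and 16.8 CPM in early luteal replicates 1, 2 and 3, with the nearest libraries almost level. SPRY4, a feedback inhibitor, stood at 3.28, 6.57 and 3.96 against 3.99, 1.49 and 1.93 CPM and overlapped. Its relative SPRY1, among those of highest mean CPM, stood at 104, 212 and 194 against 158, 209 and 168 CPM and overlapped as well.

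The growth hormone axis, which feeds into IGF1 production, held 9 tested genes, of which 5 were higher and 4 lower (median 0.49). Here 3 had an unadjusted p under 0.05, all higher, beside 3.57% of all genes in that direction, and 0 passed the threshold (edgeR and DESeq2). The growth hormone receptor GHR stood at 4.39, 6.19 and 6.33 CPM in post-ovulatory and 9.85, 14.4 and 10.9 CPM in early luteal replicates 1, 2 and 3. Its early luteal libraries all lay above the post-ovulatory ones, opposite to IGF1, as did those of 7.61% of all genes (log2 fold change 1.05 ± 0.43, SE; edgeR's quasi-likelihood test, adjusted p = 0.685). JAK2, the kinase bound to that receptor, stood at 18.5, 20.7 and 17.0 against 28.9, 49.7 and 27.5 CPM. PRLR, the prolactin receptor, stood at 3.50, 2.27 and 3.58 against 3.93, 27.8 and 14.6 CPM, the separation being narrow in early luteal replicate 1. The transcription factor STAT5B, which carries the signal to IGF1, stood at 68.1, 72.8 and 104 against 69.8, 46.9 and 109 CPM and overlapped. SOCS3, a feedback inhibitor, was high only in early luteal replicate 3, at 88.1 CPM, with the other libraries between 7.90 and 28.3 CPM. That library also had the highest summed level of the immediate early genes (led by JUN and FOS), known to react to handling of the tissue, at 2074 CPM (395 to 1467 CPM in the others), and their part in SOCS3 was not tested.

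**Figure D5:**
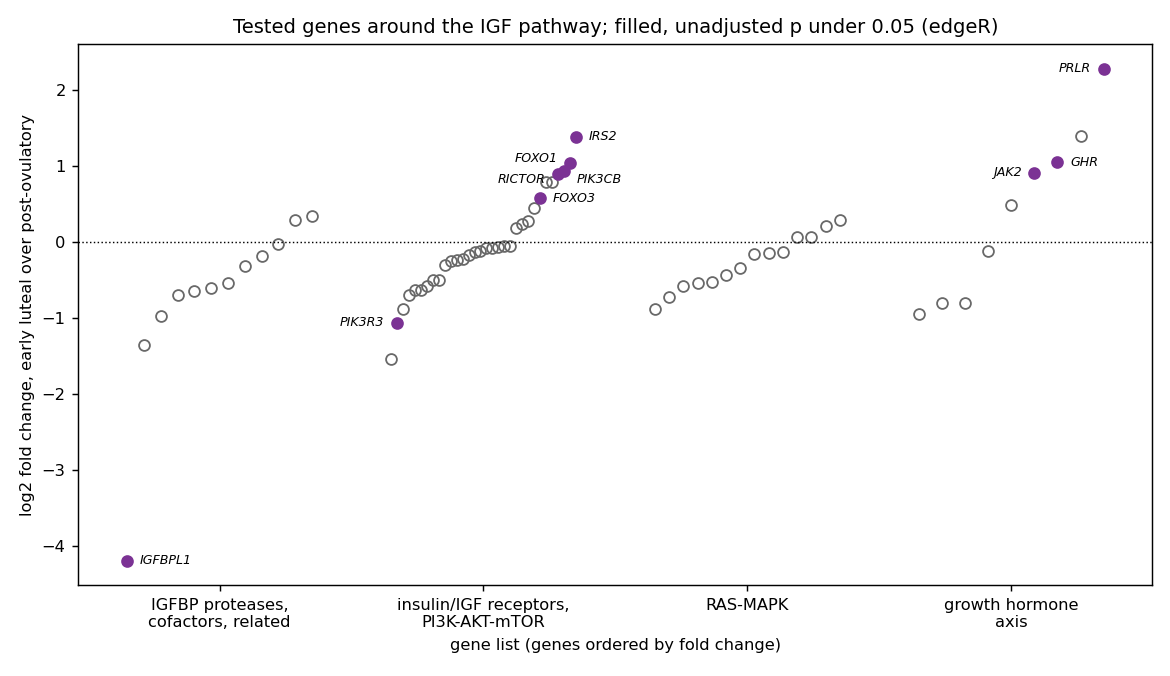
log2 fold change, early luteal over post-ovulatory, of the tested genes in 4 lists around the IGF pathway, ordered within each list. Filled points have an unadjusted p under 0.05 in edgeR (1 of 12, 6 of 32, 0 of 14 and 3 of 9); none passed an adjusted p of 0.05.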

How the data were processed

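Stranded mRNA libraries of ampulla RNA were sequenced with paired ends on a NextSeq2000, per the labels' protocols. The submitters' processing notes name FastQC 0.11.4, Trim Galore and STAR, with Sscrofa11.1 as the build. How reads were counted per gene, with which strand setting and annotation, is not stated in these sources, so overlapping, antisense and near-identical genes are uncertain. The deposited table holds the authors' raw counts, whole numbers for each Ensembl gene with no normalization. Its header lacks a tab, so its 6 columns were matched to samples by their header words. One word drops a letter of the label and fits no other sample. Symbols came from a table of identifiers (15623 matched). RefSeq's Sscrofa11.1 table gave coordinates by symbol for all 8 genes.

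CPM used TMM scaling. Stages were compared by the quasi-likelihood test of edgeR 4.0.16 (R 4.3.3, robust, filterByExpr), two-sided, adjusted over 17920 genes by Benjamini-Hochberg. SE is the size of the log2 fold change divided by the root of F, and intervals are at 95%. Floors of 3 counts per library (0.0959 to 0.406 CPM) cover counting error only. DESeq2 1.42.0 and limma 3.58.1 (voom), other scalings and filters, a replicate block and each library left out were alternatives. On data simulated for this comparison over 17920 genes, edgeR found 2 of 50 genes simulated with a 2-fold change, 25 of 50 at 4-fold, 34 of 50 at 8-fold and 38 of 50 at 16-fold, with 8 calls among 17174 unchanged genes. The replicate numbers were not taken to pair the samples. No 2 libraries had identical counts.

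The genes and lists were chosen with earlier results of these data known. By rule, the named genes are the family, the 5 nearest to IGF1, and PGR and ESR1. In each pathway list they are the 3 with the lowest p and the 2 with the highest mean CPM. In each marker list described they are the 2 with the highest mean CPM. Stroma markers other than FBLN1 and VIM, T and NK cell markers other than CD247 and KLRK1, and IGFBP1 were named outside the rule. Some others outside it are said to be added where they appear. Some genes that this rule names are not reported here. Markers of cumulus and granulosa cells (2 of 4 lower), oocytes (1 of 2 lower), luteal and theca cells (0 of 1 lower) and erythrocytes (0 of 2 lower) were counted in the same fit. In them FSHR, NR5A1, ZP3 and INSL3 were at 0 in every library. Count ratios within a library and the binding protein sum were added after the values were seen.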

Additional observations from a re-analysis of the deposited data

How the results depend on the processing

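The log2 fold changes of the 8 IGF genes kept their direction under all 15 alternatives, and IGF1 ran from -2.47 to -1.86. IGF1 passed the threshold under DESeq2 alone (adjusted p = 1.3e-05), so the number of IGF genes called was 1 there and 0 under the other 14. With no filter on low counts the adjusted p of IGF1 was 0.0988, and its highest was 0.985, without post-ovulatory replicate 1 (edgeR). Over all genes DESeq2 called 175, limma voom with sample quality weights 9 and edgeR with no filter on low counts 8, where the main analysis called 0; the cause was not tested. With each library left out in turn the count was 0 for all genes and 0 for the IGF genes. With a library left out, IGFBP2 ran from -2.51 to -0.26, IGFBP4 from -1.33 to -0.33, IGFBP6 from -1.98 to -1.09 and IGFBP5 from 0.04 to 0.66. Without early luteal replicate 2, IGF1 was -2.16 (edgeR, adjusted p = 0.556) and IRS2 1.43, near their main values of -2.27 and 1.39. Smaller without it were IGFBP7 (0.37, main 0.59), PIK3CB (0.74, main 0.94) and FOXO1 (0.83, main 1.04). So were JAK2 (0.59, main 0.91), GHR (0.88, main 1.05) and PRLR (1.55, main 2.29). PIK3R1 was larger (-0.81, main -0.58). With the replicate number as a block, edgeR called 0 genes and 0 of the IGF genes, and the log2 fold change of IGFBP2 was -1.62. The deviations of same-numbered libraries from their stage means had correlations of 0.0516, -0.0823 and 0.126. Such values do not settle whether the numbers pair the samples, and they were not taken to do so. Of the 25 other named genes, SPRY1, STAT5B and PTPN11 changed direction. With sample quality weights in voom, SPRY1 was -0.13 and STAT5B 0.034. With each library left out in turn, PTPN11 ran from -0.58 to 0.15, SPRY1 from -0.20 to 0.25 and STAT5B from -0.49 to 0.13. With 3 libraries a stage, most 2-fold changes were missed on simulated data, which held no outlying library. Differences of that size in single genes could thus go uncalled at this replicate number.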
